A study of Mus musculus with 6 samples.

Results

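Cells with transcripts of Wif1, Kcnk2 or Gdpd2, and few or none of the mature osteoblast gene Ifitm5, were described in mouse femoral fracture callus. They came from 6 single-cell RNA sequencing (scRNA-seq) libraries. A barcode was selected when it held at least 2000 unique molecular identifiers (UMIs, 1 per captured transcript) with at most 10% of them mitochondrial, at least 3 UMIs of Wif1, Kcnk2 and Gdpd2 together, fewer than 3 of Ifitm5, fewer than 5 of Dmp1, fewer than 3 of Ihh, and at most 1 each of Ptprc and Cdh5. This rule found 1521 cells among the 33301 barcodes that passed the filter on UMIs and mitochondrial share, and among 46944 barcodes in all. By library they numbered 178, 177 and 334 in control libraries 1, 2 and 3, and 93, 433 and 306 in knockout libraries 1, 2 and 3. Libraries are given in this order throughout, controls first.

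All 6 libraries came from callus 14 days after a stabilised transverse fracture of the femur. The controls are labelled wt, and the study's methods describe them as Piezo1 f/f mice. The knockouts are labelled as a Col2CreERT deletion, with the gene written Piezo3 in the sample labels and Piezo1 in the series' design text; the methods describe Piezo1 f/f mice in which a tamoxifen-inducible Cre driven by Col2a1 removes Piezo1 in chondrocytes. The methods give 12-week-old mice and 5 daily injections of tamoxifen (75 mg/kg), the first on day 5 after fracture, and the study states that both genotypes received it. The Cre acts in Col2a1-expressing cells and their descendants, and the chondrocyte is its stated target. The labels do not say whether a library is the callus of a single mouse or of several, and the study gives differing numbers of mice in its methods and its results. The p-values therefore measure the spread between these libraries, which may be technical in part.

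Wif1 encodes a secreted protein that binds WNT ligands and keeps them from their receptors. Kcnk2 encodes TREK-1, a potassium channel of the two-pore family that opens on membrane stretch. Gdpd2 encodes a glycerophosphodiester phosphodiesterase of the cell membrane that was first described in osteoblasts. WNT signals drive stromal progenitors towards osteoblasts, and the lineage then passes from Runx2 and Sp7, its transcription factors, to collagen I, bone sialoprotein (Ibsp) and at last osteocalcin (Bglap) and Ifitm5. In marrow, cells that express Cxcl12, Lepr, Ebf3 and Kitl support blood stem cells and can also form bone and fat. In the GRCm38 build Wif1 lies on chr10:121033960-121100650 (plus strand), Kcnk2 on chr1:189207930-189402273 (minus strand) and Gdpd2 on chrX:100729873-100738895 (plus strand), and all are protein-coding.

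Several libraries stood apart before any comparison was made. The median selected cell held 33340 UMIs in control library 1 and 44710 in knockout library 1, against 12120, 9057, 10731 and 19451 in the other libraries, so 3 UMIs were a weaker requirement in both libraries numbered 1. Knockout library 3 held 502 CPM of Xist, the RNA of the inactive X chromosome, in the selected cells (CPM, the UMIs of a gene as a proportion of all UMIs summed over the cells of a class in a library), and the other libraries held at most 0.243. The Y-linked gene Ddx3y was at 0 CPM in knockout library 3 and between 50.4 and 121 CPM in the others, although the methods state male mice. Knockout library 2 held little cartilage RNA in every class of cell. Col2a1, the main cartilage collagen, was at 421 CPM in its selected cells and between 5487 and 14854 CPM in the other libraries. Between 4 and 36 barcode sequences were shared by any pair of libraries.

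The 6 genes given as markers of these cells were highest in them on average. Wif1 was measured at 306, 536, 565, 195, 426 and 331 CPM, with a mean of 393 ± 143 (SD, n = 6). Ifitm5 osteoblasts (at least 3 UMIs of Ifitm5 and the same limits for the other genes; 1747 cells) held 203 ± 54.6 CPM of Wif1, and Dmp1 cells, which are osteocyte-like, held 302 ± 122. Wif1 was therefore not confined to the selected cells: 635 of the 1747 Ifitm5 osteoblasts also held at least 3 UMIs of the 3 genes. Of the 6 markers, 4 were higher than in Ifitm5 osteoblasts in every library. In knockout library 1 the 6 markers summed to 328 CPM in the selected cells and 352 CPM in Ifitm5 osteoblasts. Stromal cells with Penk and Aspn held 9.54 CPM of Wif1 and immune cells 9.98 on average, and a Wif1 UMI was found in a median of 5.76% of immune cells.

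Kcnk2 and Gdpd2 were rarer and separated the classes more. Kcnk2 reached 27.2, 116, 103, 18.7, 109 and 17.1 CPM in the selected cells, and 7.87 ± 7.15 CPM on average in Ifitm5 osteoblasts. Gdpd2 reached 11.8, 132, 40.9, 4.86, 91.3 and 13.0 CPM, against 2.09 ± 2.49 CPM in Ifitm5 osteoblasts. Control libraries 2 and 3 and knockout library 2 were high for both genes, and the other libraries were low. A UMI of Kcnk2 was found in a median of 32.7% of the selected cells of a library and in 1.22% of immune cells, and one of Gdpd2 in 14.7% and 0.805%. After every barcode was thinned to 2000 UMIs these medians were 13.4% and 0.292% for Kcnk2 and 8.41% and 0.170% for Gdpd2. These values chose the cells and are given without a test.

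Tnfrsf19, Limch1 and Pappa were not used by the rule. Limch1, which encodes an actin-associated protein, was at 35.1, 210, 176, 9.48, 130 and 26.1 CPM in the selected cells and at 16.8 ± 14.3 CPM in Ifitm5 osteoblasts. Pappa, a protease that frees insulin-like growth factors by cleaving IGFBP4, was at 70.6, 138, 75.3, 90.9, 153 and 54.7 CPM, against 18.6 ± 23.7 CPM. Tnfrsf19 (TROY), a WNT-responsive receptor of the TNF receptor family, was at 14.6, 81.5, 119, 8.75, 81.5 and 19.8 CPM, against 33.8 ± 25.0 CPM. The selected cells were above the osteoblasts of their own library in all 6 libraries for Limch1 and Pappa, and in 5 of 6 for Tnfrsf19.

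**Figure D1:**
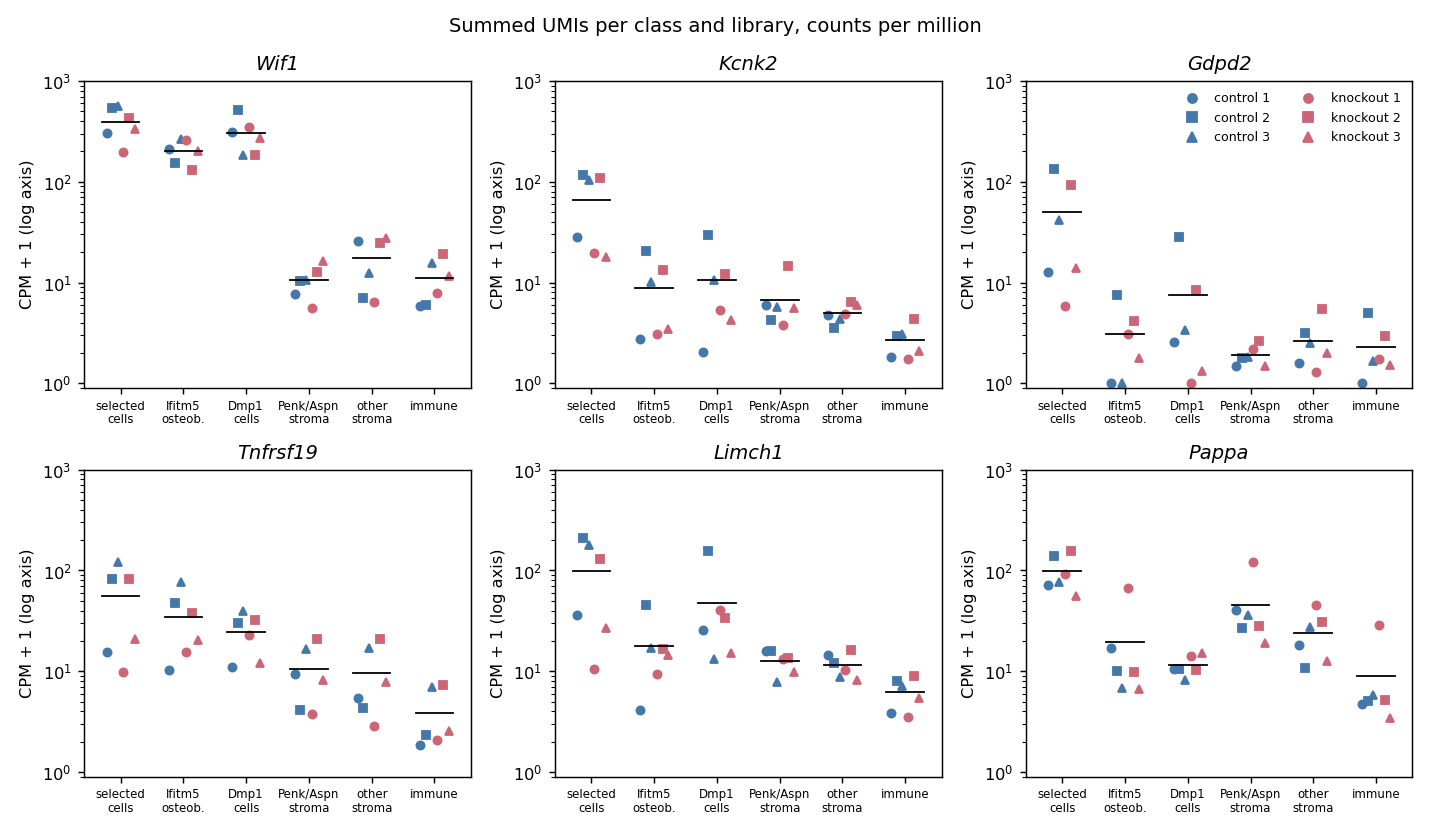
CPM + 1 (log axis) of the 6 marker genes in the selected cells and 5 other classes, from UMIs summed per class and library; points are libraries, shape gives the replicate and colour the group, and the line is the mean. Wif1 was also high in Ifitm5 osteoblasts (mean 203 CPM) and Dmp1 cells (302 CPM), while Kcnk2 and Gdpd2 were highest in the selected cells (means 65.3 and 49.0 CPM).

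The selected cells were not 1 uniform population. Of the 1521 cells, 1396 held Wif1, 548 held Kcnk2 and 363 held Gdpd2; 920 held 1 of the 3 genes, 416 held 2 and 185 held all 3. Cells selected on Wif1 alone, with no UMI of Kcnk2 or Gdpd2, numbered 830. A further 183 cells held 1 UMI of Kcnk2 and Gdpd2 together, and 508 held 2 or more. Cells with 2 or more made up 21.3%, 47.5% and 32.9% of the selected cells in the controls and 21.5%, 49.4% and 13.7% in the knockouts. The group means were 33.9% ± 13.1 and 28.2% ± 18.8 (SD, n = 3 each). Kcnk2 and Gdpd2 are genes of the rule and depth differed between libraries, so this share is a description. A p-value was computed for it and counts in the adjustment over shares given below, but it is not used. Ifitm5 was at 0 UMIs in 1253 selected cells and at 1 or 2 in 268.

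**Figure D2:**
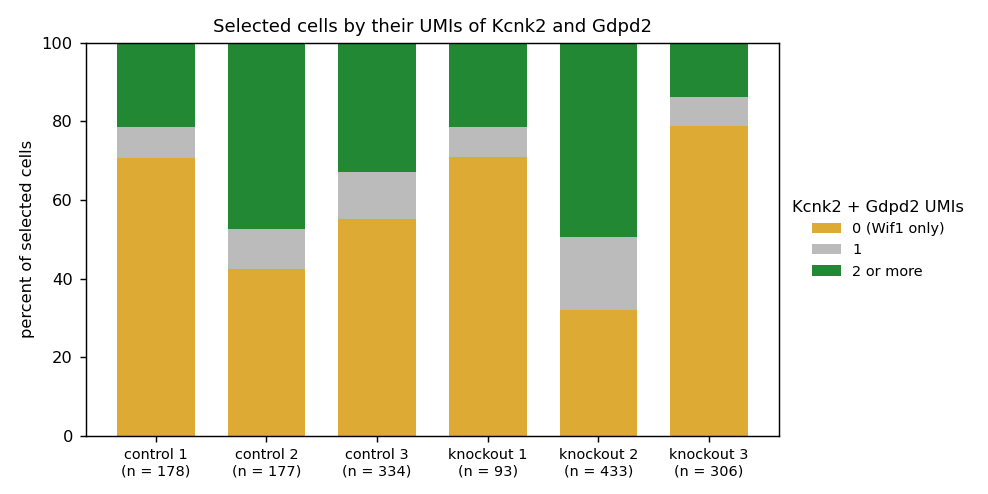
Percent of the selected cells of each library with 0, 1, or 2 or more UMIs of Kcnk2 and Gdpd2 together; n is the number of selected cells. Cells with none were the largest share in each library except control 2 and knockout 2, where cells with 2 or more were (47.5% and 49.4%).

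Cells on either side of the threshold of 3 UMIs were set side by side. The 308 cells just inside it, with a sum of exactly 3, held 129 CPM of Wif1, 31.3 of Limch1 and 69.8 of Pappa on average over libraries. The 620 barcodes just outside it, with a sum of 2 and the same other limits, held 80.8 CPM of Wif1, 20.2 of Limch1 and 60.1 of Pappa; the sum itself sets the difference in Wif1. Runx2 was at 135 CPM inside and 138 CPM outside, and Sp7 at 82.7 and 75.3 CPM. When barcodes were thinned to 2000 UMIs before the rule was applied, 384 cells were found, 23, 70 and 119 in the controls and 9, 123 and 40 in the knockouts.

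The name osteoprogenitor was checked against the genes of the osteoblast lineage. Runx2, the first transcription factor of the lineage, was at 146, 164, 189, 124, 243 and 114 CPM in the selected cells. That was above Penk and Aspn stroma (80.7 ± 19.6 CPM) and below Ifitm5 osteoblasts on average (219 ± 56.8 CPM). Sp7, which acts after Runx2, was at 83.7, 74.7, 96.8, 73.2, 85.4 and 95.8 CPM, against 216 ± 41.0 CPM in Ifitm5 osteoblasts and 37.5 ± 16.0 CPM in the stroma. Alpl, the phosphatase that frees phosphate for mineral, was at 1155 ± 229.8 CPM against 1611 ± 433 CPM in Ifitm5 osteoblasts. On average Runx2 and Sp7 lay between this stroma and the osteoblasts. Part of the cells also carried marrow stromal markers and another part carried cartilage genes, so the cells are called Wif1/Kcnk2/Gdpd2 cells here. Penk and Aspn stroma also held Cxcl12 and cartilage genes, with values given below.

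To find where these cells differ from mature osteoblasts, the log2 ratio of CPM (with 5 CPM added to both) was taken within each library and averaged over the 6 libraries. The rule set the cells apart by Ifitm5, so this is a description without a test. Of 11047 genes measured, 56 (0.507%) were more than 2-fold higher and 55 (0.498%) more than 2-fold lower in the Wif1/Kcnk2/Gdpd2 cells of every library. The median of all genes was 0.19, and scaling by trimmed means (TMM) moved it to 0.01 and the counts to 34 and 66. Knockout library 1 had 23 Ifitm5 osteoblasts and knockout library 2 had 1224. Without knockout library 1 the counts were 119 and 70, without knockout library 2 they were 86 and 66, and without knockout library 3 they were 71 and 57.

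Genes of the late osteoblast were lower. Bglap (osteocalcin) was at 31.7, 173, 152, 16.3, 281 and 111 CPM in the Wif1/Kcnk2/Gdpd2 cells and at 1475, 3807, 2010, 67.4, 4063 and 390 CPM in Ifitm5 osteoblasts. The difference was -3.47 ± 1.44 (log2, SD over 6 libraries) and pointed the same way in each of them. Immune cells held 99.2 CPM of Bglap on average, and the Wif1/Kcnk2/Gdpd2 cells 128 ± 98.0 CPM. Ibsp (bone sialoprotein) was at 5359, 2156, 26822, 12359, 5700 and 14578 CPM, against 34687 ± 12538 CPM in osteoblasts, a difference of -1.98 ± 1.00. Col1a1, the main bone collagen, differed by -1.74 ± 0.49.

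Of 14 genes in a list of osteoblast lineage genes, 5 were past the fold and lower in every library, and none was past it and higher; the list's median was -1.40 against 0.19 for all genes. They were Col1a1, Ibsp, Bglap, Bglap2 and Ifitm5, of which Ifitm5 was in the rule. Of 25 genes of bone matrix and mineralization, 8 were lower and 2 higher, with a median of -1.09. The 2 that were higher both control pyrophosphate, an inhibitor of mineral. Enpp1, which makes it, was at 153 ± 59.7 against 38.9 ± 20.7 CPM (1.90 ± 0.46), and Ank, which exports it, at 195 ± 66.1 against 51.6 ± 23.0 CPM (1.84 ± 0.42). Among 18 osteoblast transcription factors, Dlx3 (-1.86) and Creb3l1 (-1.67) were past the fold and lower, and Runx2 (-0.42 ± 0.51) and Sp7 (-1.29 ± 0.34) were not.

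Other genes with the largest differences were lower in each of the 6 libraries. Car3, a carbonic anhydrase, differed by -3.21 ± 0.62, and Slc13a5, the citrate transporter that supplies citrate to bone mineral, by -3.11 ± 0.41. The collagens Col22a1 (-3.10 ± 0.51) and Col13a1 (-2.69), and Tmem119 (-2.31), a membrane protein of differentiating osteoblasts, followed. Mamdc2, Entpd3, Cadm1, Cpz, Bglap3 and Ramp1 lay between -2.64 and -2.15. Slc13a5 was at 20.6, 13.5, 32.0, 28.0, 10.0 and 35.3 CPM in the Wif1/Kcnk2/Gdpd2 cells, and Ifitm5 osteoblasts held between 129 and 301 CPM in each library, so the groups of values did not overlap.

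Several genes of stromal cells were among the highest differences. Cxcl12, the chemokine that retains blood stem cells, was at 179, 1619, 711, 504, 493 and 118 CPM in the Wif1/Kcnk2/Gdpd2 cells and at 17.4, 48.1, 12.5, 262, 33.4 and 22.6 CPM in osteoblasts, a difference of 3.35 ± 1.67. The difference was smallest in knockout library 1, at 0.93, where the 23 osteoblasts also held 597 CPM of Igf1. Penk and Aspn stroma carried Cxcl12 as often. A UMI of it was found in a median of 57.9% of these stromal cells and 57.8% of the Wif1/Kcnk2/Gdpd2 cells. After thinning to 2000 UMIs the medians were 19.4% and 27.3%. Aspn, a small leucine-rich proteoglycan of periosteal stroma, had the most even difference among the 15 highest and 15 lowest genes, 2.74 ± 0.14, and ranged from 2.58 to 2.96 over the libraries. Aspn levels were 2732, 972, 697, 2201, 220 and 882 CPM, against 184 ± 138 CPM in osteoblasts.

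A list of periosteal-like genes (Penk, Aspn, Postn, Sfrp2, Ptn, Ogn, Mfap4 and Thbs2) had 7 of 8 members higher in every library, 2 of them past the fold (Aspn and Ogn), and a median of 1.74. Of 23 skeletal progenitor genes, 13 were higher in every library and 3 were past the fold, Thy1 (1.27 ± 0.18), Gas1 (1.54 ± 0.38) and Aspn, with a median of 0.68. Pdgfrb, the receptor of mural and stromal cells, differed by 2.05 ± 1.00, whereas Pdgfra (-0.12), Gli1 (0.10) and Lepr (0.13) differed by less than their spread between libraries. Over all 11047 genes, 3057 were higher in every library and 705 lower. Penk and Aspn stroma, chosen by 2 genes of both lists, held more of each list. The periosteal-like list summed to 7348 ± 1374 CPM there and 3986 ± 2266 CPM in the Wif1/Kcnk2/Gdpd2 cells. The skeletal progenitor list summed to 8406 ± 1503 and 5484 ± 1772 CPM.

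Among genes of insulin-like growth factor (IGF) signalling, 9 of 13 were higher in every library and none was lower in every library, with a median of 0.93. The same counts over all 11047 genes were 3057 and 705. The ligand Igf1 was at 880, 592, 253, 1591, 102 and 165 CPM in the Wif1/Kcnk2/Gdpd2 cells and at 75.7, 7.80, 26.7, 597, 17.4 and 20.1 CPM in osteoblasts (3.07 ± 1.40). Penk and Aspn stroma held as much Igf1, 705 ± 272 CPM. The binding proteins Igfbp5 (2.99 ± 1.04), Igfbp4 (2.31 ± 0.95) and Igfbp7 (1.92 ± 0.36) and the Igfbp4 protease Pappa (2.42 ± 1.15) were higher in all 6 libraries. Of these, Igf1 and Igfbp7 were past the fold in each library.

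Genes of the WNT pathway were taken by role. Among antagonists, Sfrp2 (1.94), Sfrp4 (1.74), Dkk2 (1.24) and Dkk3 (0.95) were higher in all 6 libraries, and Dkk1 (-1.28) and Notum (-0.77) were lower in all 6. Of 15 antagonists measured, 6 were higher and 2 lower in every library, none was past the fold in each, and the median was 0.73. For comparison, 3057 of all 11047 genes were higher and 705 lower in every library, with a median of 0.19. Dkk1 was at 0.435 ± 0.464 CPM in the Wif1/Kcnk2/Gdpd2 cells, at or under the immune level of 0.623 CPM. Of 18 receptors and agonists, 9 were higher in every library and 2 were past the fold. The agonist Rspo3, which raises WNT receptor levels, was at 68.6, 98.6, 89.8, 46.2, 152 and 91.5 CPM against 9.23 ± 4.18 CPM in osteoblasts (2.73 ± 0.63), and all 6 values lay above every osteoblast value. The receptor Fzd1 differed by 1.54 ± 0.17. None of 8 WNT ligands was past the fold, and their median was -0.09.

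The WNT effector Tcf7, a transcription factor, was lower by -2.24 ± 0.77, at 7.61, 9.94, 29.4, 9.97, 30.7 and 20.9 CPM against 97.1 ± 23.4 CPM. The feedback target Axin2 was at 10.1 ± 4.41 CPM and 7.85 ± 5.42 CPM, a difference of 0.28 ± 0.27. Of 18 WNT targets and mediators, Tcf7 was the single gene past the fold.

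Kcnk1, another two-pore potassium channel, was at 10.5, 5.96, 15.5, 12.6, 19.7 and 16.9 CPM in the Wif1/Kcnk2/Gdpd2 cells and at 118 ± 30.9 CPM in osteoblasts (-2.74 ± 0.22), with no overlap between the libraries' values. Of the mechanically gated channels, Piezo2 was higher (1.58 ± 0.30; 33.7 ± 25.9 against 7.22 ± 6.83 CPM), and Piezo1 was at 48.4 ± 24.9 CPM in these cells and 51.7 ± 25.0 CPM in osteoblasts, a difference of -0.09 ± 0.10. Of 18 channels measured, Piezo2 was past the fold and higher and Kcnk1 lower; Kcnk2 was also higher, but it is a gene of the rule.

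Of 10 genes of parathyroid hormone and RANKL signalling, 7 were higher and 3 lower in every library and 1, Mmp13, was past the fold, with a median of 0.74. Among all 11047 genes, 3057 were higher and 705 lower in every library. Tnfsf11 (RANKL), which osteoclasts need to form, was at 32.5, 103, 72.2, 48.6, 92.4 and 35.7 CPM, against 1.34, 11.7, 4.18, 45.6, 6.56 and 4.64 CPM in osteoblasts, and was higher in all 6 libraries (2.26 ± 1.13), by 0.08 in knockout library 1. Its decoy receptor Tnfrsf11b (OPG) was lower in all 6 (-0.74 ± 0.31). The collagenase Mmp13 was past the fold in each library (1.83 ± 0.91), at 3235 ± 1846 against 821 ± 290 CPM. Mmp9 (2.43 ± 1.34) and Lpl (2.65 ± 0.73) were also among the 15 highest differences, but immune cells held 968 CPM of Mmp9 and 238 CPM of Lpl, more than the Wif1/Kcnk2/Gdpd2 cells did on average (691 and 147 CPM). Of 8 osteoclast genes, 4 could be measured and none was past the fold in every library.

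**Figure D3:**
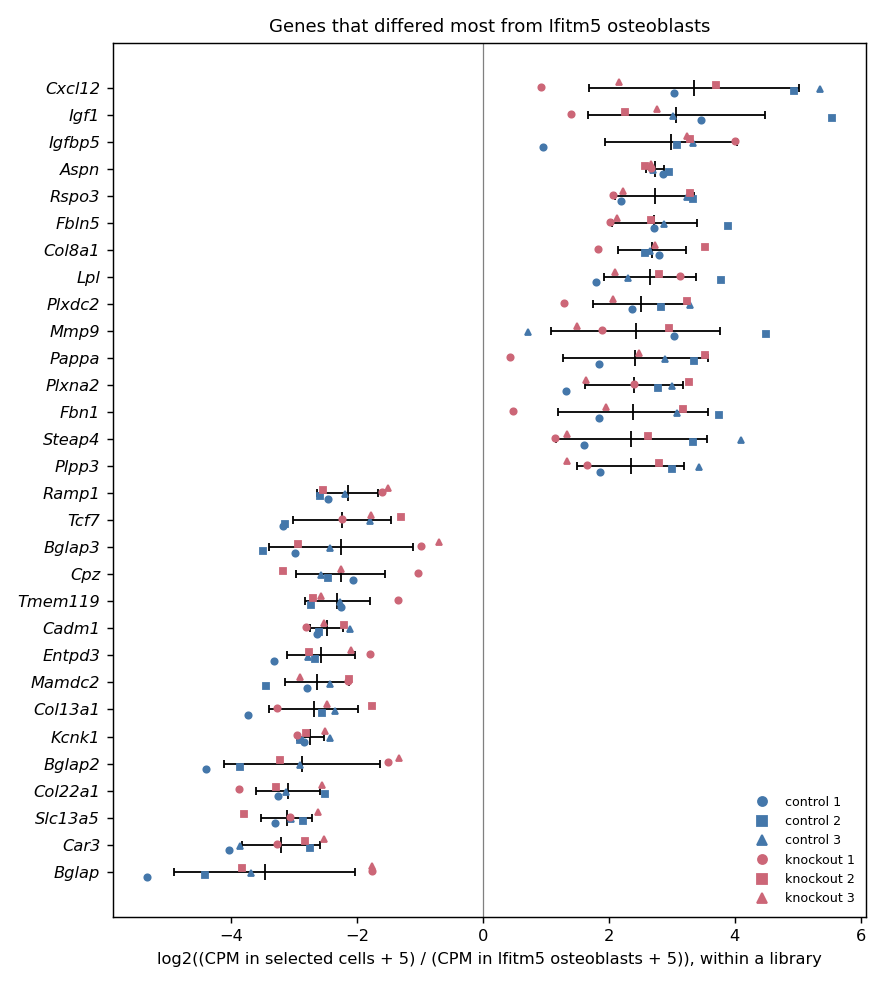
Log2 ratio of CPM + 5 between the selected cells and Ifitm5 osteoblasts of the same library, for the 15 highest and 15 lowest genes; points are libraries, the tick is their mean and the bar the SD over 6 libraries. Aspn (2.74 ± 0.14) and Kcnk1 (-2.74 ± 0.22) were the most even of these genes, and Cxcl12 (3.35 ± 1.67) varied most.

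The cells with Kcnk2 and Gdpd2 and those with Wif1 alone differed from each other. The 508 cells with 2 or more UMIs of Kcnk2 and Gdpd2 were set against the 830 with none, within each library and again without a test. Of 11453 genes, 32 (0.279%) were more than 2-fold higher and 27 (0.236%) more than 2-fold lower in every library, Kcnk2 and Gdpd2 included. Without knockout library 2, where cartilage genes were low, the counts were 83 and 101. Without knockout library 3 they were 41 and 28, and without both libraries numbered 1 they were 54 and 28. The cells with 2 or more held fewer UMIs in all 6 libraries, with medians of 26252 against 34259 in control library 1 and 6076 against 11225 in control library 3 as examples; the part of depth in these differences was not tested.

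Marrow stromal genes were higher in the cells with Kcnk2 and Gdpd2. Cxcl12 was at 652, 4195, 2473, 1826, 860 and 331 CPM in them and at 51.0, 32.6, 75.5, 79.0, 138 and 67.3 CPM in the Wif1-only cells (4.09 ± 1.69). In the Wif1-only cells it was above the immune level of the same library in 4 of 6 libraries. Ebf3, a transcription factor of Cxcl12-expressing stroma, was at 95.2, 248, 180, 56.6, 64.0 and 32.8 CPM, against 16.2, 10.6, 5.25, 8.67, 10.8 and 9.21 CPM (2.69 ± 1.13). Lepr (1.88 ± 1.32) and Kitl (1.96 ± 1.39), the stem cell factor, were higher in all 6 libraries. Of the 7 marrow stroma genes, 2 were past the fold, 4 were higher in every library, and the median was 1.96 against 0.15 for all genes. Over all 11453 genes, 2067 were higher in every library and 565 lower. Of 11 stress and dissociation genes, 6 were also higher in every library and none lower (median 0.31), and their part in the differences was not tested.

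Adipoq (adiponectin), the marker shared by marrow stromal cells and fat cells, was not even across libraries. The cells with 2 or more UMIs of Kcnk2 and Gdpd2 held 0, 270, 184, 0, 28.9 and 1.17 CPM of Adipoq. Over all Wif1/Kcnk2/Gdpd2 cells it was at 0 in both libraries numbered 1, where 3 UMIs, the limit that a count of 0 allows, equal 0.486 and 0.729 CPM. Hp, the most abundant of the 7 genes, was at 5636 CPM in the Wif1-only cells of control library 3 and between 30.8 and 209 CPM in those of the other libraries; it is also made by neutrophils and in the acute phase.

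Further genes of the Kcnk2 and Gdpd2 cells are named for their values: they were the chemokine Cxcl14 (3.46 ± 2.01), the lipase Lpl (2.87 ± 1.48), the retinoid- and steroid-metabolizing Cyp1b1 (2.94) and the elastic fibre protein Fbln5 (2.50 ± 0.78). The basement membrane collagens Col4a1 (2.39 ± 0.92) and Col4a2 (1.84) were higher together. Of the markers the rule did not use, Limch1 (2.38 ± 1.26) was past the fold, and Tnfrsf19 (1.87 ± 1.05) and Pappa (1.79 ± 1.11) were higher in all 6 libraries. Igfbp4, the substrate of Pappa, was at 1560, 2233, 1804, 3304, 1079 and 1020 CPM against 441, 403, 198, 790, 367 and 433 CPM (2.04 ± 0.69), with no overlap of the values.

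Cartilage genes were higher in the Wif1-only cells. Col2a1 was at 16883, 22138, 8051, 19074, 806 and 16678 CPM in the Wif1-only cells and at 7056, 957, 313, 1072, 207 and 4331 CPM in the cells with Kcnk2 and Gdpd2 (-3.08 ± 1.53). Immune cells, which do not make this collagen, held 3134 CPM on average. The Wif1-only cells were above the immune level of their library in 6 of 6 libraries, and the cells with Kcnk2 and Gdpd2 in 2 of 6. Comp (-3.18 ± 0.88), a cartilage matrix protein, Acan (-2.58 ± 0.98), the main cartilage proteoglycan, and Sox9 (-1.49 ± 0.64), the chondrocyte transcription factor, were lower in the cells with Kcnk2 and Gdpd2 in each library. Those cells were nevertheless above the immune level in 3 of 6 libraries for Comp, 3 of 6 for Acan and 5 of 6 for Sox9, and the Wif1-only cells in 6 of 6 for each. Of 16 chondrocyte genes, 9 were past the fold and 14 were lower in every library, with a median of -2.51, against 565 of all 11453 genes lower in every library. Cartilage RNA was not particular to these cells. The 16 genes summed to 24181 ± 13409 CPM over all Wif1/Kcnk2/Gdpd2 cells and 21084 ± 13370 CPM in Penk and Aspn stroma. The remaining barcodes with at most 1 UMI each of Ptprc and Cdh5 held 58210 ± 43635 CPM.

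Ibsp, like the cartilage genes, was lower in the cells with Kcnk2 and Gdpd2 in each library. It was at 6502, 2588, 36307, 16949, 9869 and 17279 CPM in the Wif1-only cells and at 1780, 1632, 2187, 830, 2709 and 1838 CPM in the cells with Kcnk2 and Gdpd2 (-2.67 ± 1.44). The cells with Kcnk2 and Gdpd2 were above the immune level of Ibsp in 4 of 6 libraries, and the Wif1-only cells in 6 of 6. Pth1r, the receptor of parathyroid hormone, was lower in the cells with Kcnk2 and Gdpd2 in all 6 libraries (-1.14 ± 0.48), as was Tnfrsf11b (-1.73 ± 0.96). Runx2 (0.29 ± 0.55) and Sp7 (-0.54 ± 0.64) differed by less than their spread. Wif1 itself was at 335, 497, 530, 240, 459 and 354 CPM in the Wif1-only cells and at 233, 603, 578, 98.2, 366 and 155 CPM in the others (-0.47 ± 0.64), a difference that the rule sets in part, since cells without Kcnk2 and Gdpd2 had to hold at least 3 UMIs of Wif1.

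**Figure D4:**
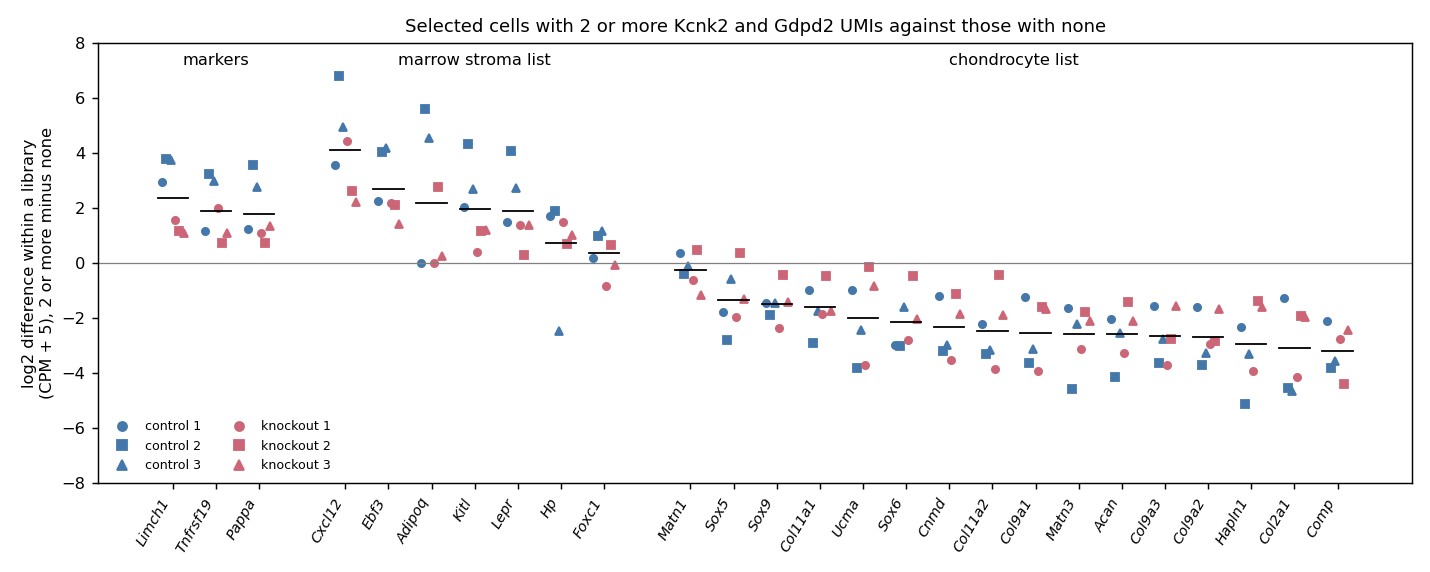
Log2 difference of CPM + 5 between selected cells with 2 or more UMIs of Kcnk2 and Gdpd2 and those with none, within each library; points are libraries and the line is their mean. Limch1, Tnfrsf19, Pappa, Cxcl12, Ebf3, Kitl and Lepr lay above 0 in all 6 libraries, and 14 of 16 chondrocyte genes lay below 0 in all 6.

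The share of Wif1/Kcnk2/Gdpd2 cells was then compared by genotype label. They made up 8.19%, 2.46% and 4.44% of passing barcodes in the controls and 5.54%, 5.28% and 4.70% in the knockouts. The means were 5.03% ± 2.91 and 5.17% ± 0.431 (SD, n = 3 each), a difference of 0.147 percentage points (two-sided exact permutation test, p = 0.9; the Benjamini-Hochberg adjusted value over the 3 shares computed is 0.9). The control values ranged more widely than the knockout values and enclosed them. The order differed by replicate number: control above knockout in the libraries numbered 1, whose selected cells held most UMIs, and below it in the others. The difference was 0.384 percentage points without knockout library 3, 1.73 without control library 1 and -1.14 without control library 2, and -0.320 when barcodes were thinned first.

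As a share of Wif1/Kcnk2/Gdpd2 cells and Ifitm5 osteoblasts together, the cells were 74.8%, 81.9% and 79.0% in the controls and 80.2%, 26.1% and 49.5% in the knockouts. The means were 78.6% ± 3.59 and 51.9% ± 27.1, a difference of -26.6 percentage points (two-sided exact permutation test, p = 0.3). Knockout libraries 2 and 3 were low, with 1224 and 312 Ifitm5 osteoblasts, and knockout library 1 lay within the controls. The difference ranged from -40.7 without knockout library 1 to -13.7 without knockout library 2. With 3 libraries in each group no p under 0.1 can be reached.

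Piezo1, the gene deleted by design in knockout chondrocytes, was examined first among genes. In the Wif1/Kcnk2/Gdpd2 cells it was at 51.2, 29.4 and 39.6 CPM in the controls and at 97.0, 36.1 and 36.8 CPM in the knockouts. Knockout library 1 was high and the other knockout libraries lay among the controls. The log2 difference was 0.50 with a standard error (SE) of 0.41 (edgeR quasi-likelihood test, adjusted p = 1.00), and -0.079 without knockout library 1. A 3′ library counts the transcript whether or not the floxed exons remain, so this value does not check the deletion.

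By edgeR with its filter on low counts, no gene was called between genotypes in these cells. With UMIs summed per library, 12864 genes were tested, and 0 (0%) had an adjusted p under 0.05 by edgeR. At an unadjusted p under 0.05 there were 219 (1.70%), against 1686 without knockout library 1 and 1007 without both libraries numbered 1. DESeq2 called 6 genes, and edgeR without a filter on low counts called 10. The 3 knockout values lay all above the 3 control values for 350 genes (2.72%) and all below for 333 (2.59%), 683 together (5.31%). In the cells with 2 or more UMIs of Kcnk2 and Gdpd2, 9083 genes were tested and 0 called, with 316 at an unadjusted p under 0.05. Leaving out any one library, knockout library 3 included, gave 0 calls, and leaving out both libraries numbered 1 gave 1, Mmp3. Summed UMIs cannot separate fewer cells of a kind from less RNA per cell among the selected cells.

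Among the markers that the rule did not use, the log2 difference (knockout minus control) was -0.99 (SE 0.90) for Tnfrsf19, -1.36 (SE 0.94) for Limch1 and 0.08 (SE 0.40) for Pappa, with adjusted p = 1.00 in edgeR for each. Wif1, Kcnk2 and Gdpd2 chose the cells, and their fitted differences of -0.54 (SE 0.41), -0.79 (SE 0.79) and -0.74 (SE 1.08) are given without a test. For Wif1 the control values of 306, 536 and 565 CPM overlapped with 195, 426 and 331 CPM in the knockouts. For Kcnk2 and Gdpd2, knockout library 2 lay beside the higher controls and both other knockout libraries lay beside control library 1.

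**Figure D5:**
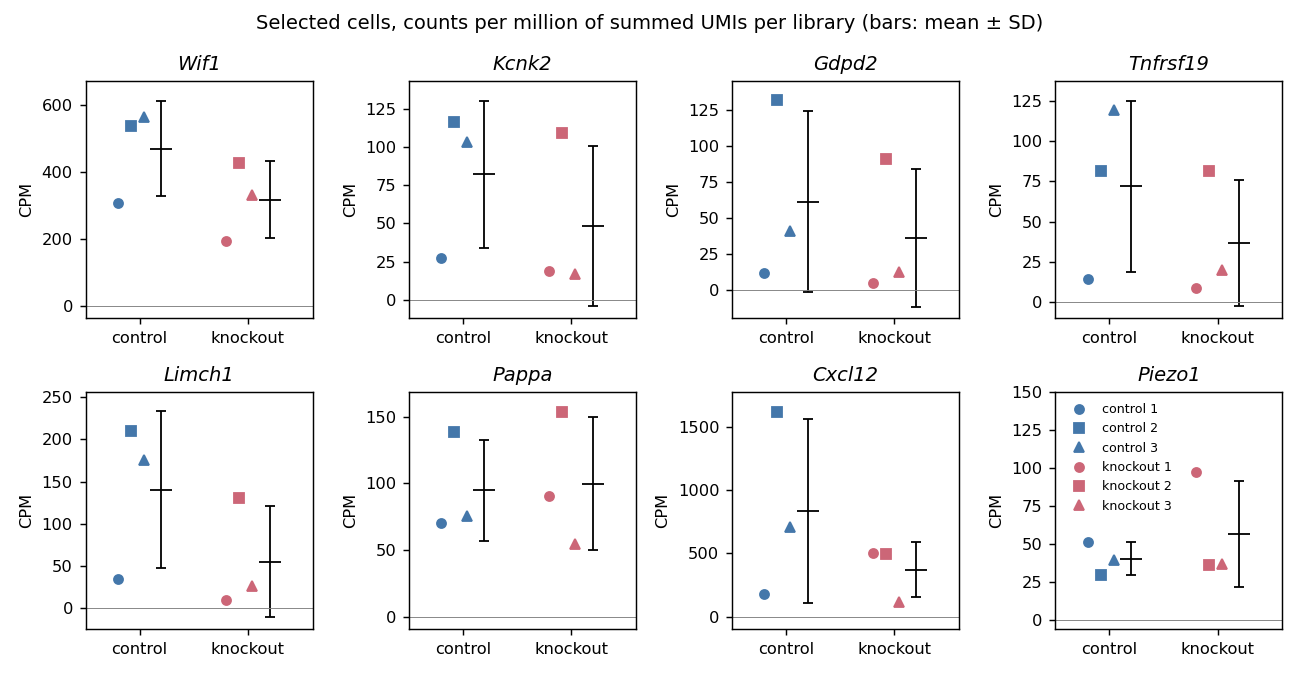
CPM in the selected cells by genotype label for the 6 markers, Cxcl12 and Piezo1; points are libraries (shape gives the replicate) and the bars beside them are the mean ± SD of 3 libraries. The groups overlapped for each of the 8 genes.

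The gene lists are given by the directions of the fitted differences. EdgeR with its filter on low counts called no gene of any list. Without that filter its calls included C1qa, C1qb and C1qc of the macrophage list, and Xist. All 7 marrow stroma genes were below 0 (median -1.22), against 6314 of 12864 genes below 0 and a median of 0.01 over all genes. Their sums overlapped, at 470, 2667 and 5508 CPM in the controls and 960, 1027 and 398 CPM in the knockouts. Control library 3 held 4431 CPM of Hp. Kitl was at 49.5, 154 and 78.0 CPM in the controls and 29.9, 48.2 and 39.8 CPM in the knockouts, without overlap (-1.21, SE 0.42, edgeR adjusted p = 1.00), and Cxcl12 differed by -1.19 (SE 0.78) with overlapping groups. Of 20 WNT receptors and agonists, 17 were below 0 (median -0.31), and of 18 WNT targets and mediators 15 (median -0.43). Of 20 cell cycle genes, 18 were above 0 (median 0.45). This list summed to 1321, 2243 and 1730 CPM in the controls and 1113, 3000 and 2670.5 CPM in the knockouts. Knockout library 1 lay below every control. The 16 chondrocyte genes had 13 below 0 (median -0.36). They summed to 38114, 26526 and 15010 CPM in the controls and 31199, 1850 and 32388 CPM in the knockouts. Knockout library 2 alone lay below the controls. For osteoblast lineage genes, 7 of 13 were above 0, with a median of 0.02.

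Genes of myeloid cells lay on the other side. All 12 macrophage and monocyte genes were above 0 in the knockouts (median 1.32), and so were 8 of 8 neutrophil genes (median 0.82). The complement gene C1qa was at 12.3, 5.96 and 15.2 CPM in the controls and 54.7, 58.2 and 25.3 CPM in the knockouts (2.01, SE 0.42, edgeR adjusted p = 1.00). C1qa, C1qb and C1qc were among the 6 genes called by DESeq2, with Aldh1a2, Il2rg and Esm1, named here because they were called. Of the 6, Esm1 was lower in the knockouts and the others higher. The 10 genes called by edgeR without its filter on low counts included these 6. There the edgeR adjusted p was 0.0017 for each of C1qa, C1qb and C1qc. The macrophage list summed to 170, 236 and 364 CPM in the controls and 563, 956 and 403 CPM in the knockouts, with Lyz2 as its most abundant gene, against 17570 CPM in immune cells. The neutrophil list summed to 73.7, 967 and 1129 CPM in the controls and 164, 2963 and 931 CPM in the knockouts, so knockout library 2 alone lay above the controls. The lymphocyte list summed to 22.7 CPM on average, and the 1 of its 7 genes that could be tested, Igkc, lay below 0 (-0.72). Ptprc was capped by the rule. In Ifitm5 osteoblasts the same lists also lay above 0, with 10 of 10 macrophage genes (median 0.67) and 6 of 6 neutrophil genes (median 1.91), and 14 of 15 WNT receptors and agonists lay below 0 (median -0.43). The part of immune RNA in the genotype differences was not tested.

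The same contrast in Ifitm5 osteoblasts gave 0 of 9833 genes called (0%), with 332 (3.38%) at an unadjusted p under 0.05 and 1 call by DESeq2. Without knockout library 1, which had 23 osteoblasts, 1183 genes had an unadjusted p under 0.05 and 0 were called by edgeR. Whether the genotype difference was unlike in both classes was tested as an interaction with library as a block. Of 13678 genes, 0 (0%) were called by edgeR and 541 (3.96%) had an unadjusted p under 0.05; DESeq2 called 6. Leaving out single libraries gave 0 to 7 calls, with 7 without knockout library 2 and 2 each without knockout library 3 or control library 2.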

How the data were processed

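Callus cells were dissociated with enzymes and sequenced with 10x Chromium 3′ libraries. The authors deposited unnormalised UMI counts per gene and barcode; per the labels, reads were processed with Cell Ranger (6.1.1 for both libraries numbered 1, 6.1.2 for the others) on GRCm38. Library totals ran from 57626530 to 103784364 UMIs, and the libraries numbered 3 used another gene list, so genes were joined by shared ID.

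UMIs were summed per class and library, since cells are not replicates. Genotype was tested on these sums with edgeR 4.0.16 (filterByExpr, TMM, quasi-likelihood, Benjamini-Hochberg threshold 0.05), with DESeq2 1.42.0 as an alternative; shares were tested by exact permutation over 20 assignments. Selected cells and osteoblasts were compared within libraries as log2 ratios with 5 CPM added. Named genes were the 15 highest and 15 lowest among genes changed the same way in every library and reaching a mean of 50 CPM in either class, without the 8 genes of the rule and mitochondrial and ribosomal protein genes, plus members of 33 lists; others are named as chosen after their values were seen. No doublet caller was run; the limits on other classes' genes stood in for it, and an alternative dropped the 5% of cells with most UMIs. The members and lists were chosen with earlier results of these data known. The fits were tested on simulated data. Analyses ran in Python 3.11.15 and R 4.3.3. Alternatives covered depth, thresholds, scaling, filters, pseudocounts and single libraries.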

Additional observations from a re-analysis of the deposited data

How the results depend on the processing

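The difference in the share of passing barcodes took either sign: it was -0.320 percentage points after thinning, and leaving out single libraries gave -1.14 to 1.73, with -0.148 without control library 3 and -0.0376 without knockout library 1. For genes higher than in osteoblasts, a pseudocount of 1 CPM gave 123 (83 lower), one of 20 CPM gave 20 (25 lower), TMM gave 34, thinned cells gave 86, and osteoblasts without those holding 3 or more UMIs of the 3 genes gave 136. Leaving out single libraries gave 58 to 119 higher (119 without knockout library 1, 86 without knockout library 2) and 56 to 70 lower. Chosen after seeing the data, the cells with 2 or more UMIs of Kcnk2 and Gdpd2 gave 185 higher, and leaving out both libraries numbered 1 gave 175. Calls by genotype were 6 with DESeq2, 10 without the count filter and 1 without both libraries numbered 1. In osteoblasts they were 1 with DESeq2 and 104 without the filter. For the interaction they were 6 with DESeq2, 2 with library totals, 114 without the filter, and 0 to 7 over single libraries left out. Piezo1 ranged from -0.079 to 0.74 on the log2 scale over single libraries left out. The cause of these shifts was not tested.

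Same-numbered libraries correlated at 0.509, 0.104 and 0.0388, not all above 0.1, and control library 3 correlated more with knockout library 2 (0.333), so they were not taken as pairs, although same-numbered libraries share a Cell Ranger version and gene list. With the replicate number as a block, 0 genes were called in the selected cells (379 at an unadjusted p under 0.05 by edgeR) and 0 in osteoblasts (462), the share differed by 0.147 and -26.6 percentage points as before, and Piezo1 by 0.41.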

Other observations

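Further gene groups were measured against Ifitm5 osteoblasts within libraries, where 3057 of all 11047 genes were higher in every library and 705 lower. Of 22 genes of the BMP and TGF-beta response, 11 were higher in every library and none was past the fold (median 0.43). Of 11 hedgehog genes, 3 were higher in every library and Gas1, a co-receptor, was past the fold (median 0.21). Of 20 cell cycle genes, 1 was higher in every library (median 0.12), and of 11 stress and dissociation genes 1 (median 0.19), both near the median of all genes. Of 16 chondrocyte genes, 12 were higher in every library and none was past the fold (median 1.12). Of 21 genes of collagen secretion, 9 were lower in every library and 1 was past the fold (median -0.36).

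By genotype label, all 4 osteoclast genes tested were above 0 in the knockouts (median log2 difference 1.49) and all 3 erythroid genes below 0 (median -2.18). EdgeR with its filter on low counts called no gene. Over all genes, 6550 of 12864 were above 0, with a median of 0.01. In Ifitm5 osteoblasts all 4 osteoclast genes tested were above 0 as well (median 1.05). In the selected cells the osteoclast list summed to 614, 789 and 663 CPM in the controls and to 447, 2968 and 948 CPM in the knockouts, so knockout library 2 stood far above the others. The erythroid list summed to 1.30, 17.9 and 1575 CPM in the controls and to 7.78, 231 and 7.75 CPM in the knockouts, so control library 3 stood far above the others.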
